A study of Mus musculus with 6 samples.

Results

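Expression of 10 genes that encode Tudor domain proteins of germ cells was compared between control and Mgat1 cKO germ cells on Mouse Gene 2.0 ST arrays. The genes were Tdrd1, Tdrd3, Tdrd5, Tdrd6, Tdrd7, Tdrd9, Tdrd12, Tdrkh, Stk31 and Rnf17. They were chosen by name, with earlier results of these data known. All 10 were measured among the 23152 genes of the arrays. They were read by 224 of the 233753 probe sets that carried a single gene symbol, each probe set reading about an exon. The value of a gene is the mean of its probe sets on the log2 scale, so that a difference of 1 is a 2-fold difference.

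Germ cells were freed from testes of 23 day old FVB males by enzymatic digestion. Both groups carried floxed Mgat1 alleles: control males were Mgat1[F/F], and Mgat1 cKO males were Mgat1[F/F]:Stra8-iCre, in which the Stra8 promoter drives iCre recombinase from the spermatogonial stage. MGAT1 is the enzyme that begins the building of complex N-glycans on glycoproteins. RNA of 6 males was pooled for each genotype and 3 arrays were hybridized from each pool, so every SD and p-value below measures how far aliquots of the same pool differed and leaves out the variation from mouse to mouse. In these preparations of mixed germ cell stages, fewer cells of a stage and less RNA per cell cannot be told apart.

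A Tudor domain is a small protein fold that binds methylated arginine or lysine. In male germ cells, proteins with several Tudor domains dock onto methylated PIWI proteins and gather them, with their piRNAs, in granules: the cement between mitochondria of spermatogonia and spermatocytes, and the chromatoid body of round spermatids. piRNAs are small RNAs that silence transposons in the germ line, and mice without one of several of these Tudor proteins are male sterile.

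The arrays of both groups had like distributions, with medians of 6.85 to 6.87, and correlated at 0.996 among control arrays, 0.994 to 0.995 among cKO arrays and 0.979 to 0.98 between the groups. The mean of the 12 Mgat1 probe sets was 6.31 ± 0.13 (SD, n = 3) in control and 6.30 ± 0.18 in cKO (adjusted p = 0.939, limma), and does not check the genotype. A single Mgat1 probe set was called: 17248953 fell by 1.01 (adjusted p = 0.0367 over all probe sets, limma). In 17248948 all cKO arrays lay above all control arrays (a difference of 0.41, adjusted p = 0.264). By qRT-PCR the paper found Mgat1 transcripts strongly reduced in cKO germ cells at this age. It also reports that basigin, a germ cell glycoprotein, had lost its complex N-glycans there. All 12 spermatid markers listed (Tnp1, Prm1, Acrv1 and others) were called higher in cKO (adjusted p under 0.05, limma), beside 6.07% of all genes. Their mean level was 6.33 to 6.36 in control arrays and 8.49 to 8.59 in cKO arrays. Of 12 meiotic spermatocyte markers, only Rec8 was called higher at an adjusted p under 0.05 (limma), beside 6.07% of all genes. In that list 0 were called lower, beside 2.35%. Smc1b was also higher by mean (0.13, adjusted p = 0.237), with all cKO arrays above all control arrays. The other spermatocyte markers were lower by mean, down to -0.29 in Sycp3 (adjusted p = 0.114, limma). Among them Dmc1 (-0.26, adjusted p = 0.0585) came nearest to a call. The median difference of that list was -0.14. The 10 spermatogonia markers had the same median difference, -0.14, with 0 called, beside 8.41% of all genes in either direction. Somatic markers were listed too. The mean level of the 10 Sertoli markers was 8.55 to 8.61 in control and 8.43 to 8.5 in cKO arrays. The 10 Sertoli, 6 Leydig, 5 peritubular myoid and 6 macrophage genes had median differences of -0.11, -0.26, -0.16 and -0.13. In these lists 1, 3, 1 and 2 genes were called lower at an adjusted p under 0.05 (limma), beside 2.35% of all genes. In the Leydig list Insl3, read by 1 probe set, and Hsd3b1 were above 0 (0.80 and 0.08, adjusted p = 0.202 and 0.531). Their part in the results below was not tested.

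Transcripts of the Tudor domain genes stayed close to their control level in the pooled RNA of Mgat1 cKO germ cells. None of the 10 genes was called by limma at an adjusted p under 0.05, against 8.41% of all genes (6.07% higher and 2.35% lower), and 0 of 10 changed over 2-fold, against 2.57%. The 95% intervals compare the 2 RNA pools and leave out the variation between mice. Over all 10 genes those of the difference reached from -0.40 to 0.23, or from 0.757-fold to 1.17-fold. Each interval for the pools thus lay well inside a 2-fold change. The estimates were nevertheless mostly on the low side. Of the 10, 9 were below 0 and 1, Tdrd7, was above it, whereas 64.5% of all genes were lower by mean. The 9 include Tdrd6, whose difference of -0.00023 was next to 0 and changed sign in 5 of 14 alternatives. Tdrd3, also among them, changed sign in 1. The median difference of the 10 genes was -0.12, beside -0.05 for all genes. At an unadjusted p under 0.05 there were 4 genes, all lower (Tdrd1, Tdrd12, Stk31 and Rnf17), against a background of 14.5% lower and 24.1% in either direction. In 5 genes (Tdrd5, Tdrd12, Tdrkh, Stk31 and Rnf17) every cKO array lay below every control array, which held for 20.1% of all genes, and in 0 of the 10 did every cKO array lie above, against 11.2%. The count of called genes depended on the variance model: with an intensity trend limma called 5 genes lower (Tdrd1, Tdrd5, Tdrd12, Stk31 and Rnf17), where it called 5.98% of all genes lower and 13.2% in either direction, and an analysis of variance on the same values called 2 (Tdrd12 and Tdrkh), where it called 1.68% lower and 6.27% in either direction.

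**Figure D1:**
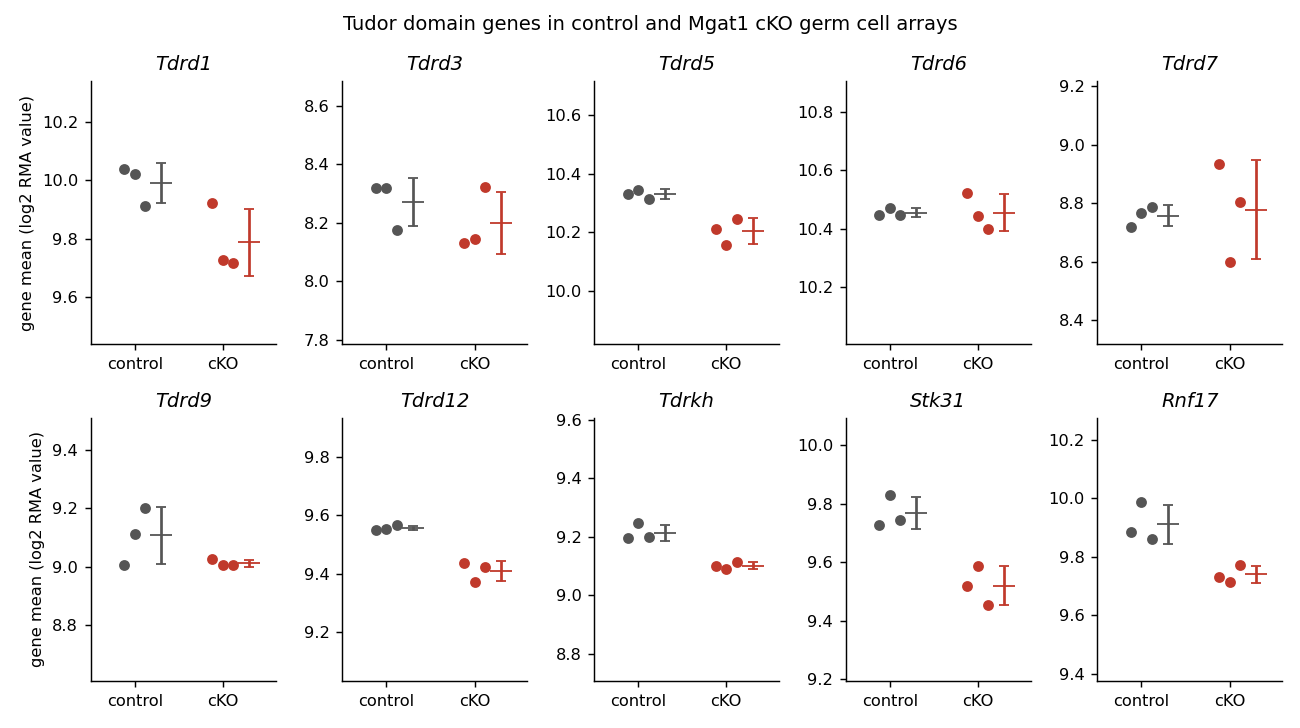
Gene means of the 10 Tudor domain genes (vertical axes, log2 RMA value, each spanning 0.9) in each of the 3 control (gray) and 3 Mgat1 cKO (red) arrays, with the mean and SD of the 3 arrays beside them. In Tdrd5, Tdrd12, Tdrkh, Stk31 and Rnf17 the cKO arrays lie below all control arrays, and in the other 5 genes the groups overlap.

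The first group of proteins works in piRNA production or with PIWI proteins, some of them at the mitochondrial surface or in the cement between mitochondria. Tdrd1 encodes a protein of the intermitochondrial cement that binds the PIWI protein MILI. Its level was 10.04, 10.02 and 9.91 in control arrays 1 to 3 and 9.92, 9.73 and 9.72 in cKO arrays 1 to 3. The groups overlapped by a single array, cKO array 1, which lay just above control array 3. The difference was -0.20 (SE 0.08, 95% interval -0.38 to -0.02, adjusted p = 0.168 over all genes, limma), and 25 of its 27 probe sets were lower in cKO.

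Tdrkh encodes a protein of the mitochondrial outer membrane with KH and Tudor domains that takes part in trimming piRNA ends. Control arrays gave 9.20, 9.25 and 9.20 and cKO arrays 9.10, 9.09 and 9.11, so that the groups were apart but close. The difference was -0.11 (SE 0.06, 95% interval -0.24 to 0.02, adjusted p = 0.272), and 14 of 18 probe sets were lower.

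Tdrd12 encodes a helicase-like Tudor protein needed for secondary piRNAs in mouse. Its 3 control arrays lay within a narrow range, at 9.55, 9.55 and 9.57, and its cKO arrays at 9.44, 9.37 and 9.42. Every cKO array was lower, by more than the spread in either group. The difference was -0.15 (SE 0.06, 95% interval -0.28 to -0.01, adjusted p = 0.171), with 21 of 26 probe sets lower.

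Tdrd9 encodes a helicase that works with the nuclear PIWI protein MIWI2 in fetal germ cells. It measured 9.01, 9.11 and 9.20 in control and 9.03, 9.00 and 9.00 in cKO arrays. The cKO arrays lay close to the lowest control array, and the control spread (SD 0.098) was wider than that of cKO (SD 0.013). The difference was -0.10 (SE 0.07, 95% interval -0.25 to 0.06, adjusted p = 0.435), and 23 of 34 probe sets were lower.

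The second group is known from the chromatoid body and from the steps after meiosis. Tdrd6 encodes a large protein of the chromatoid body, needed for its structure in mouse spermatids. It gave 10.45, 10.47 and 10.45 in control arrays and 10.52, 10.44 and 10.40 in cKO arrays. The cKO arrays lay on both sides of the control arrays, and both means were 10.46. The 95% interval of the difference was -0.14 to 0.14, that is 0.906-fold to 1.10-fold (adjusted p = 0.999), the closest to equal of the 10 genes, and its 9 probe sets were split into 5 lower and 4 higher.

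Tdrd7, whose protein remodels chromatoid bodies in mouse, was the only gene with a higher mean in cKO. Control arrays gave 8.72, 8.77 and 8.79, and cKO arrays gave 8.93, 8.60 and 8.81. The spread of the cKO arrays (SD 0.17) covered all control arrays, and the difference was 0.02 (SE 0.09, 95% interval -0.19 to 0.23, adjusted p = 0.908). It turned to -0.06 without cKO replicate 1, and was 0.23 with the median of its probe sets in place of the mean (adjusted p = 0.393). Its 20 probe sets were divided evenly, 10 lower and 10 higher. In 5 of them every cKO array lay above every control array, beside 8.47% of all probe sets with a single symbol. In 1 every cKO array lay below, beside 10.8%. Probe sets of a gene are not independent, and 0 of the 20 were called (smallest adjusted p = 0.187, limma).

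Tdrd5 encodes a protein needed for silencing of retrotransposons and for spermatid development in mouse. Levels were 10.33, 10.35 and 10.31 in control and 10.21, 10.16 and 10.24 in cKO arrays, which did not overlap. The difference was -0.13 (SE 0.06, 95% interval -0.26 to 0.01, adjusted p = 0.237), and 14 of 17 probe sets were lower.

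Rnf17 encodes a RING finger and Tudor protein of germ cell granules that is needed for spermatid differentiation. Control arrays gave 9.88, 9.99 and 9.86, and cKO arrays 9.73, 9.72 and 9.77. All cKO arrays were again lower, with a difference of -0.17 (SE 0.06, 95% interval -0.32 to -0.02, adjusted p = 0.153). Of its 34 probe sets, 23 were lower. In 9 every cKO array lay below every control array, beside 10.8% of all probe sets with a single symbol, and 0 were called.

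Stk31 encodes a protein with a Tudor and a kinase-like domain that binds the PIWI protein MIWI. It had the largest difference of the 10 genes. Levels were 9.73, 9.83 and 9.75 in control and 9.52, 9.59 and 9.45 in cKO arrays, and did not overlap. The difference was -0.25 (SE 0.07, 95% interval -0.40 to -0.10), a 0.842-fold level in cKO, with an adjusted p of 0.0603 in limma. It lay below 0 in 19 of 21 probe sets.

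Tdrd3 differs from the other members in that its protein, a partner of topoisomerase TOP3B, is found in many tissues and not mainly in germ cells. It measured 8.32, 8.32 and 8.17 in control and 8.13, 8.14 and 8.32 in cKO arrays. One cKO array was as high as the highest control arrays. The difference was -0.07 (SE 0.08, 95% interval -0.25 to 0.11, adjusted p = 0.616) and its 18 probe sets were split 9 to 9. With the median of its probe sets in place of the mean, the difference was 0.03, and with dim probe sets left out it was -0.014.

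**Figure D2:**
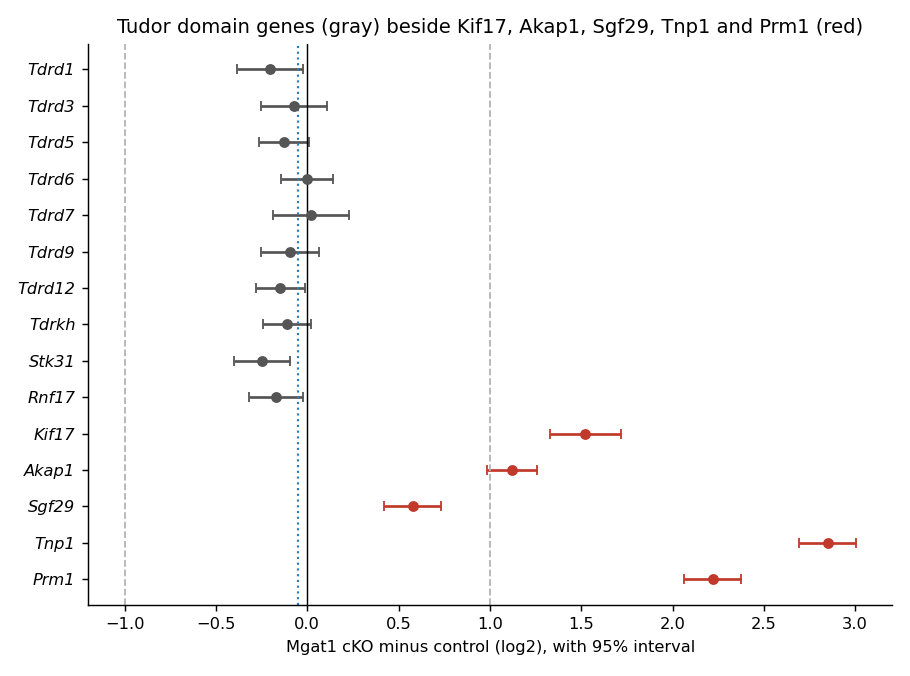
Difference of Mgat1 cKO minus control (horizontal axis, log2) with its 95% interval for the 10 Tudor domain genes (gray) and for Kif17, Akap1, Sgf29, Tnp1 and Prm1 (red). The dotted line is the median of all genes (-0.05) and the dashed lines mark 2-fold changes. The gray intervals lie between -0.40 and 0.23, to the left of all red ones.

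Single probe sets were read next, since a mean over exons can hide a change in part of a transcript. Of the 224 probe sets, 163 (72.8%) were lower and 61 higher in cKO, beside 57.9% lower among all probe sets, with a median difference of -0.10 beside -0.05. All cKO arrays were below all control arrays in 49 probe sets, where the background was 10.8%, and above in 8, where it was 8.47%. Probe sets of a gene read the same transcripts and are not independent. In the limma fit over all 269751 probe sets of the arrays, 0 of the 224 were called, against 2.05%, and 24 had an unadjusted p under 0.05, against 12.2%. Among the genes without a departing probe set, the lowest differences were -0.97 in Tdrd1 (probe set 17360605, arrays overlapping), -0.70 in Tdrd3 (17302310), -0.67 in Tdrd9 (17279240, arrays overlapping), -0.50 in Tdrd7 (17413755), -0.47 in Tdrkh (17400086) and -0.12 in Tdrd6 (17345102). The highest were 0.58 in Tdrd7 (17413758), 0.45 in Tdrd9 (17279268), 0.29 in Tdrkh (17400090), 0.20 in Tdrd3 (17302306), 0.17 in Tdrd6 (17345107) and 0.05 in Tdrd1 (17360604). In Rnf17, Stk31 and Tdrd5 the highest were 0.27 (17300768), 0.12 (17458487) and 0.05 (17228502). Probe set 17302310 of Tdrd3 was dim, below the lower quartile of each array (5.04 to 5.07). It measured 4.65, 4.20 and 3.78 in control and 3.15, 3.66 and 3.73 in cKO arrays. In 17279240 of Tdrd9, cKO array 1 lay far below the other cKO arrays (3.72, beside 5.93 and 6.07).

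**Figure D3:**
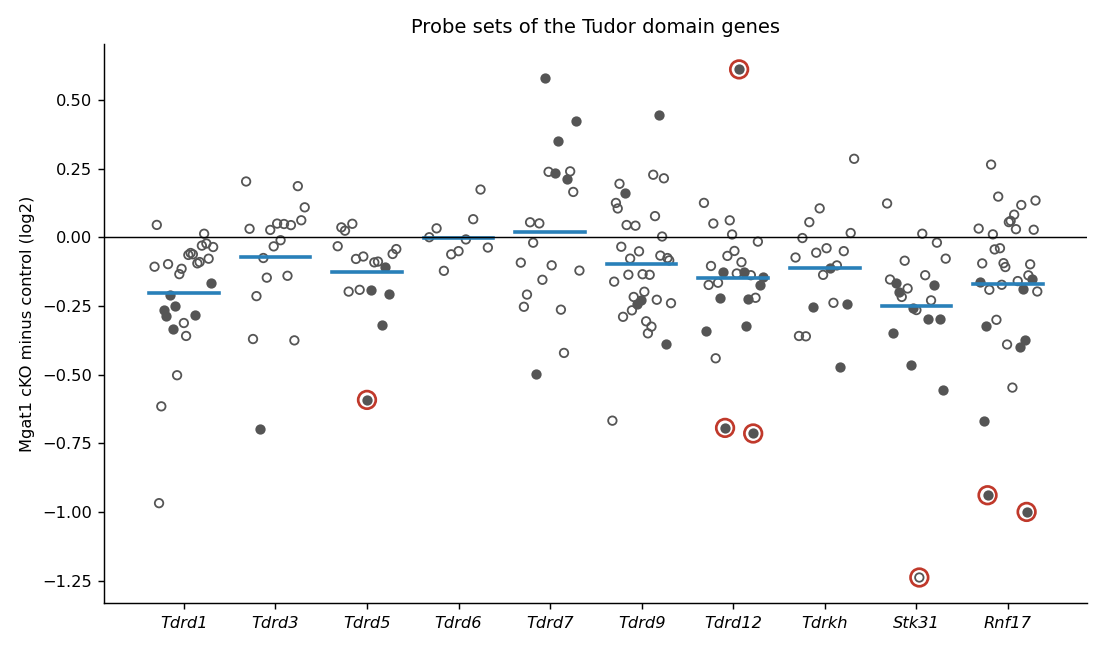
Difference of Mgat1 cKO minus control (vertical axis, log2) for each of the 224 probe sets of the Tudor domain genes. Filled points are probe sets whose arrays do not overlap between groups, blue lines are the gene means, and red rings mark the 7 probe sets that departed from the rest of their gene at an adjusted p under 0.05.

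Probe sets of the same gene did not all move alike in 3 of the 10 genes. In limma's diffSplice, which sets each probe set against the others of its gene and assumes a single spread per gene, Tdrd12 (adjusted p = 0.00012), Rnf17 (adjusted p = 0.0284) and Tdrd5 (adjusted p = 0.0435) had uneven differences. The background was 7.44% of 20833 genes with several probe sets, and 8.77% of those with 9 to 34 probe sets, the range of the 10 genes. In the same fit 7 of the 224 probe sets departed from their gene, 3 of Tdrd12, 2 of Rnf17 and 1 each of Tdrd5 and Stk31, against 1.94% of probe sets in all. Where these probe sets lie in the transcripts was not determined here.

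Tdrd12 held the only departing probe set with a higher level in cKO. Probe set 17489789 measured 9.13, 8.96 and 8.90 in control and 9.66, 9.59 and 9.57 in cKO arrays, all cKO arrays above all control arrays. It was 0.61 higher (SE 0.11, adjusted p = 0.0645 over all probe sets, the smallest of the 224), and stood 0.79 above the other probe sets of the gene (adjusted p = 3.0e-05, diffSplice). It passed the threshold of the fit over all probe sets with an intensity trend (adjusted p = 0.00948, the only call among the 224, against 2.72% of all) and with dim probe sets left out (adjusted p = 0.0371, again the only call, against 2.9%). The other departing probe sets of Tdrd12 went down. Probe set 17489795 measured 9.65, 9.46 and 9.36 in control and 8.95, 8.44 and 8.93 in cKO arrays, 0.59 below the rest of its gene (a departure of -0.59, adjusted p = 0.00421). Probe set 17489780 measured 8.37, 8.33 and 7.92 against 7.48, 7.47 and 7.58 (a departure of -0.57, adjusted p = 0.00672). In these also the groups did not overlap. Neither was called without control replicate 1 (adjusted p = 0.105 for 17489795 and 0.139 for 17489780), nor 17489795 without cKO replicate 2 (0.137), nor 17489780 without control replicate 2 (0.0867). Tdrd12 as a whole was uneven in all 10 alternatives run, with adjusted p-values up to 0.040.

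In Rnf17, Tdrd5 and Stk31 the departing probe sets were all on the low side. Probe set 17300791 of Rnf17 measured 7.37, 7.89 and 7.33 in control and 5.73, 6.82 and 7.04 in cKO arrays, with cKO array 1 far below the other cKO arrays (a departure of -0.85, adjusted p = 0.00445). Probe set 17300766 of Rnf17 measured 8.0, 9.0 and 8.07 against 7.25, 7.37 and 7.65, with control array 2 far above the other control arrays (a departure of -0.79, adjusted p = 0.0112). The groups were apart in both, but neither departure was called without control replicate 2 (adjusted p = 0.504 for 17300766 and 0.115 for 17300791) or without cKO replicate 1 (adjusted p = 0.0528 and 0.445). Probe set 17228506 of Tdrd5 measured 8.37, 8.60 and 8.49 in control and 7.84, 7.75 and 8.09 in cKO arrays, a departure of -0.49 (adjusted p = 0.000723) that was called in 10 of 10 alternatives. The test over the whole of Tdrd5 held in 3 of 10 alternatives and in none that left out an array (adjusted p = 0.0821 to 0.295). That over Rnf17 held in 7 of 10, and not without control replicate 1 (adjusted p = 0.214), control replicate 2 (0.757) or cKO replicate 2 (0.162). Probe set 17458499 of Stk31 measured 6.56, 7.23 and 6.33 in control and 5.15, 6.65 and 4.62 in cKO arrays. This probe set varied by more than 1 between cKO arrays and the groups overlapped, so its departure of -1.04 (adjusted p = 0.000283) rests on the single spread assumed for the gene, and in the fit of the probe set on its own the adjusted p was 0.443. The departure was not called without control replicate 2 (adjusted p = 0.0609) or cKO replicate 3 (0.0905). The test over Stk31 (adjusted p = 0.145) passed the threshold without cKO replicate 2 (adjusted p = 0.000107), as did that over Tdrd7 (0.00632), and that over Tdrd1 did without cKO replicate 1 (0.0342).

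**Figure D4:**
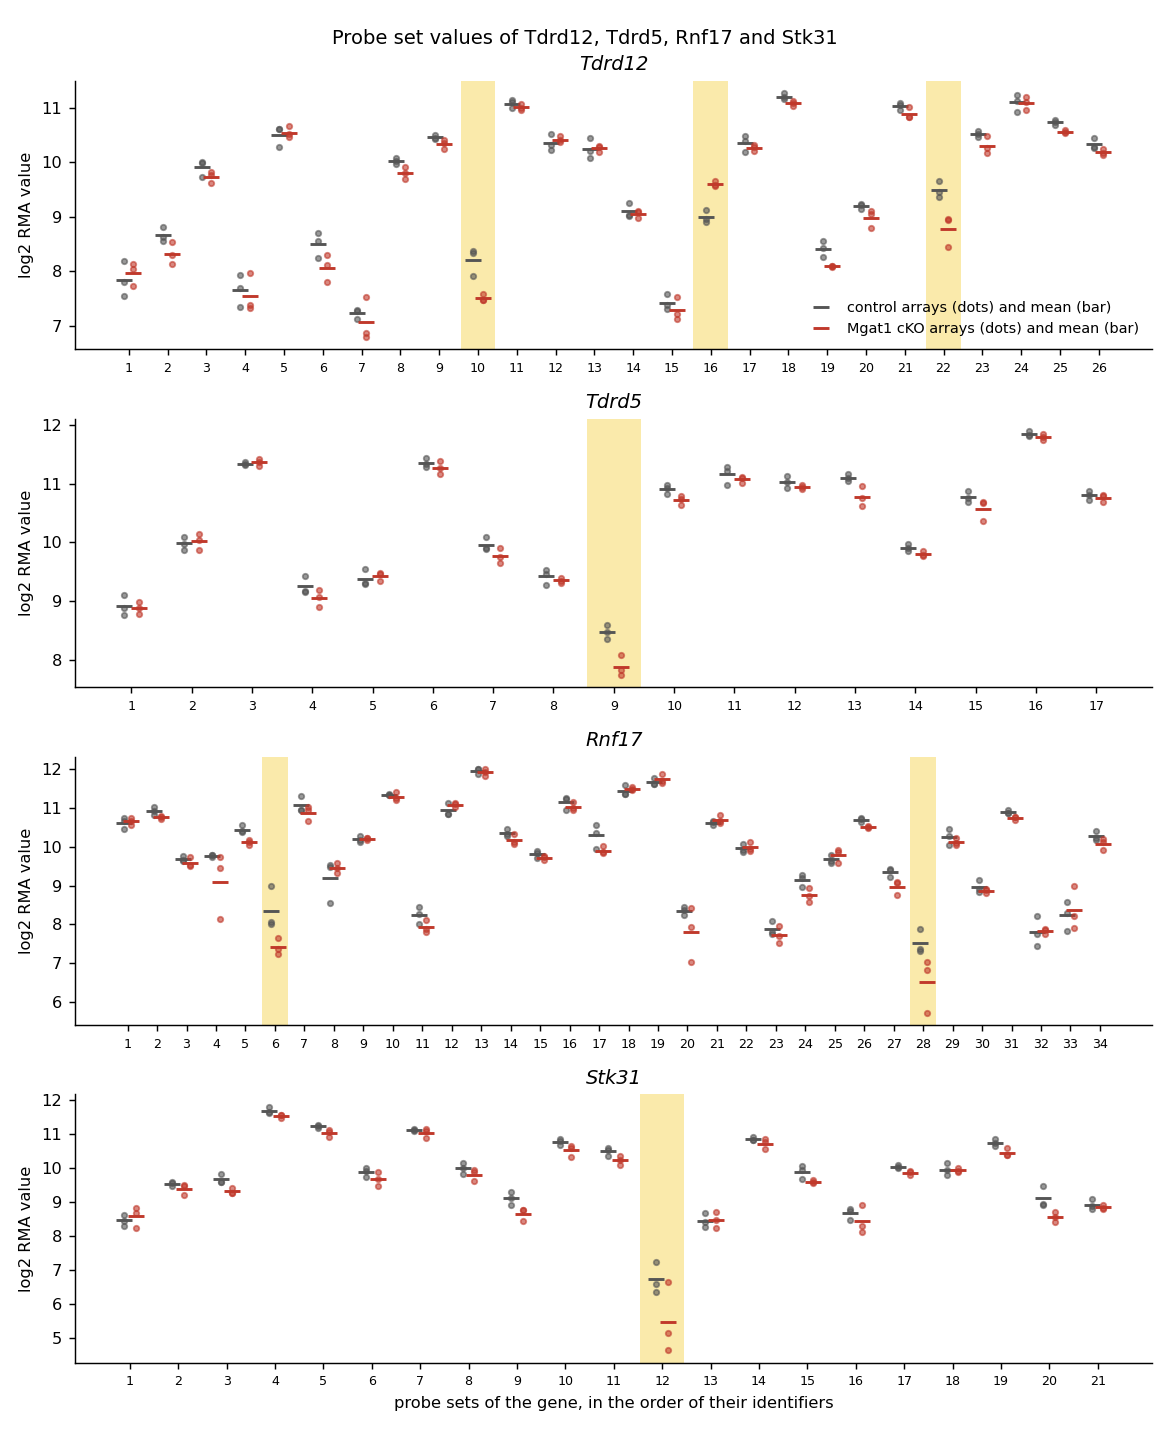
Values of each probe set (vertical axes, log2 RMA value) of Tdrd12, Tdrd5, Rnf17 and Stk31 in the 3 control (gray) and 3 Mgat1 cKO (red) arrays, with bars at the mean, in the order of the probe set identifiers (horizontal axis). Yellow bands mark the 7 departing probe sets. In Tdrd12 the middle band holds probe set 17489789, the only one of the 7 with cKO above control.

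No partner of these proteins in the piRNA pathway was called in the main limma fit, without a trend. Of 18 PIWI proteins and piRNA factors listed, 17 were measured, 0 were called, beside 8.41% of all genes, and 4 had an unadjusted p under 0.05, beside 24.1% of all genes. The median difference of the list was -0.06, beside -0.05 over all genes. Of the 4, Mov10l1 (-0.16), Asz1 (-0.20) and Btbd18 (-0.16) were lower and Gtsf1 (0.17) was higher. Calls in this list with an intensity trend or by analysis of variance were not examined. In so short a list, 0 calls do not set it apart from all genes. Piwil1, which encodes MIWI and also stands in the spermatocyte list, had a difference of -0.06 (adjusted p = 0.599), Piwil2, which encodes MILI, of -0.08 (adjusted p = 0.466), and Ddx4, the germ cell RNA helicase of the granules, of 0.01 (adjusted p = 0.951). The smallest adjusted p in the list was that of Mov10l1, the RNA helicase that starts piRNA production, with a difference of -0.16 (adjusted p = 0.144). Mybl1, whose product A-MYB drives piRNA precursors and many piRNA factors at pachytene in mouse, had a difference of -0.10 (adjusted p = 0.326).

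Genes related to the granules by place or by domain, but outside the 10, included 3 that rose. Among 10 RNA factors of the chromatoid body, Kif17 was the only one called, and the list had a median difference of -0.02. Over all genes, 6.07% rose and 2.35% fell, so with lists this small neither this count nor the next sets its list apart. At an unadjusted p under 0.05 (limma) the chromatoid body list held 3 genes, beside 24.1% of all genes. They were Kif17 and, both lower, Ddx6 (-0.19, adjusted p = 0.105) and Dicer1 (-0.16, adjusted p = 0.160). KIF17 is a kinesin that in mouse spermatids is found at the chromatoid body. Its gene measured 5.80, 6.05 and 5.93 in control and 7.47, 7.35 and 7.53 in cKO arrays, with no overlap, and rose by 1.52 (SE 0.08, adjusted p = 8.2e-06, limma). Of 20 other genes with a Tudor domain, 2 rose and 0 fell, and the median difference was -0.05. Akap1, which encodes a mitochondrial anchor of protein kinase A with KH and Tudor domains, measured 6.98, 7.06 and 6.97 in control and 8.11, 8.15 and 8.13 in cKO arrays. It rose by 1.12 (SE 0.06, adjusted p = 6.5e-06). Sgf29, listed on the arrays as Ccdc101, encodes the Tudor subunit of the SAGA chromatin complex and rose by 0.58 (SE 0.07, adjusted p = 0.000877), from 7.64 to 8.22. All 3 moved in the direction of the spermatid markers, and whether the share of spermatids or their RNA moved with them was not tested.

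The start regions of 3 genes are shown to set the member with the largest difference (Stk31) and the most uneven member (Tdrd12) beside Kif17, the granule gene that rose. They are RefSeq promoters of GRCm38.p6 from 250 bases before to 50 bases after the start, the first start site listed for each gene. Stk31 is at chr6:49395289-49395588 on the plus strand, Tdrd12 at chr7:35537666-35537965 on the minus strand and Kif17 at chr4:138262001-138262300 on the plus strand. Capitals mark AACNG, the core bound by MYB proteins, on either strand (CNGTT on the other), and TGACGTCA, the cAMP response element, which reads the same on both strands.
Stk31: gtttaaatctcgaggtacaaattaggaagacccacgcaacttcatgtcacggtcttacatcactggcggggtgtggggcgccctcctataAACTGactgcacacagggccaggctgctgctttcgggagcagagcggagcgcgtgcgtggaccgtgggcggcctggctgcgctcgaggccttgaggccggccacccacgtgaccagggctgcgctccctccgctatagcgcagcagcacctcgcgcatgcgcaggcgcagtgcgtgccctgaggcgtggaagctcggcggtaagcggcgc
Tdrd12: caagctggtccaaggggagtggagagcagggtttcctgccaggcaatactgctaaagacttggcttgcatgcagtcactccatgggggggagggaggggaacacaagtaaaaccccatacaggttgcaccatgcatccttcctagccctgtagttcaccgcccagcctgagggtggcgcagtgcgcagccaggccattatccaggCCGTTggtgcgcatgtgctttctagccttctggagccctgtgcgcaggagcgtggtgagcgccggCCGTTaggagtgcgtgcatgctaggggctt
Kif17: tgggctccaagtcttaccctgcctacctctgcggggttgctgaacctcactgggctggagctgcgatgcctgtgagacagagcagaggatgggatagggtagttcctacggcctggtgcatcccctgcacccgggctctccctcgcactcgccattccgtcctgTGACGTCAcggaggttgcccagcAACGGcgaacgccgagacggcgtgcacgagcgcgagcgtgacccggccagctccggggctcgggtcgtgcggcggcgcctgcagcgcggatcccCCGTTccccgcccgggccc

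Promoters were matched for 8 of the 10 genes, with 14 start sites, and not for Tdrd6 and Rnf17. AACNG was found in 13 of the 14 promoters (that of Tdrd3 had none), and in 80.3% of all 32851 promoters. TGACGTCA was found in 0 of the 14 and in 1.79% of all promoters. Of the 3 related genes that rose, Kif17 had 1 match, whose first base lay at position -86 from its start site, and Akap1 (3 start sites) and Sgf29 (1 start site) had none. With so few promoters these counts are a description of the letters in the windows.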

How the data were processed

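RNA of 23 dpp testicular germ cells was measured on 6 Mouse Gene 2.0 ST arrays, 3 control and 3 Mgat1 cKO. The deposited log2 values, which the authors made by RMA in Affymetrix Expression Console (version not given in the sources used here), were used without further normalization, with gene symbols from the platform annotation. Probe sets with several or no symbols were left out of gene means. The arrays at 22 dpp were not analysed here.

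Genes, and separately all probe sets, were tested with limma 3.58.1 (lmFit, eBayes without a trend; R 4.3.3). P-values were adjusted by Benjamini-Hochberg over the whole table, with a threshold of 0.05. All adjusted p-values in the text are from limma unless analysis of variance is named. Limma replaced the study's analysis of variance because so few arrays give a poor estimate of each gene's spread, and an exact permutation test of 3 against 3 cannot go below 0.10. Probe sets within genes were compared with diffSplice, and a departure is the difference of a probe set minus that of the other probe sets of its gene. Python 3.11.15 with matplotlib 3.10.9 made the figures.

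The members and gene lists were chosen with earlier results of these data known. Named are all 10 members, for each its highest and lowest probe set and those called, the called genes of other pathway lists (or the one with the smallest adjusted p), and Mgat1. Piwil1, Piwil2, Ddx4 and Mybl1 and, as examples, spermatid and meiotic markers were added to these by role. Asz1, Btbd18, Gtsf1, Ddx6 and Dicer1 were added for their unadjusted p under 0.05. Smc1b, Insl3 and Hsd3b1 were added as genes that went against the median of their list. Fkbp6 was not matched. Older symbols were matched through the RefSeq gene table. The number of arrays limits precision.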

Additional observations from a re-analysis of the deposited data

How the results depend on the processing

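Alternatives were centring, an intensity trend, analysis of variance, a replicate block, repeated quantile normalization, medians of probe sets or arrays, dim probe sets (below the 25th percentile by mean) left out, a 1.5-fold threshold and each array left out. The number of Tudor genes called went from 0 to 2 under analysis of variance (6.27% of all genes in either direction) and to 5 with an intensity trend (13.2%), and was 0 under the others. With an intensity trend Tdrd1, Tdrd5, Tdrd12, Stk31 and Rnf17 had adjusted p-values of 0.0336, 0.0457, 0.0357, 0.00321 and 0.023, and under analysis of variance Tdrd12 and Tdrkh had 0.0351 and 0.0492. The number of their probe sets called went from 0 to 1 (17489789 of Tdrd12) with an intensity trend (2.72% of all) and to 1 with dim probe sets left out (2.9%). No alternative gave a change over 2-fold, or over 1.5-fold, and the median difference stayed between -0.14 and -0.11. Estimates near 0 changed sign: Tdrd6 was 0.0080 with centred arrays, 0.0017 after repeated quantile normalization and from -0.034 to 0.028 with an array left out (above 0 without control replicate 2, cKO replicate 2 or cKO replicate 3), Tdrd3 was 0.034 with medians of probe sets, and Tdrd7 was from -0.056 (without cKO replicate 1) to 0.112 with an array left out and 0.234 with medians of probe sets.

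Leaving out an array gave 1 to 3 uneven genes and 3 to 10 departing probe sets, where all arrays gave 3 and 7. Without control replicate 1 or control replicate 2 only Tdrd12 remained uneven, and the lowest count of departing probe sets, 3, was that without control replicate 2. Tdrd12 was uneven in 10 of 10 alternatives, Rnf17 in 7, Tdrd5 in 3 and Stk31 in 2. Same-numbered arrays did not deviate together (r = -0.0229, -0.0637 and -0.0224), which gives no sign of a pairing by number. With 3 arrays per group these correlations do not settle whether the numbers mark a batch. With the replicate number as a block, 0 genes were called, 3 were uneven (Tdrd5 no longer, adjusted p = 0.376, and Stk31 in its place, adjusted p = 0.00581) and 8 probe sets departed. Why these calls moved was not tested.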
